A study of Homo sapiens with 4 samples.

Results

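The mitochondrial ribosomal protein genes are the genes whose symbols begin with MRPL (large subunit) or MRPS (small subunit) followed by a digit. They were picked by symbol alone, and 77 of the 19974 symbols in the deposited tables matched, 48 of them MRPL and 29 MRPS. The RNA came from HCT116, an established human colorectal carcinoma cell line, 36 h after transfection with 100 nM of either a non-targeting control siRNA (si-NC) or siRNA against the long noncoding RNA LINC00152 (si-152). Each group held 2 libraries, labelled as biological replicates 1 and 2, and all 4 libraries came from transfected cells of this 1 line. The comparison asked which of these genes changed when LINC00152 was targeted. LINC00152 was not analysed here, so its level could not be used to check the group labels. The labels do not say whether replicates were separate cultures transfected on separate days, and p-values measure only the spread between these libraries.

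Mitochondria carry their own ribosome, which translates the few messenger RNAs made from mitochondrial DNA, all of them for subunits of the respiratory chain and the ATP synthase. Its RNA comes from the mitochondrial genome, whereas its proteins are encoded in the nucleus, made in the cytosol and imported. Many of them descend from proteins of the bacterial ribosome and others were added in mitochondria. In colorectal cancer cells as elsewhere, the number of these ribosomes bears on how much respiratory chain a cell can build.

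Expression was given as 1 value per gene and library, read here as FPKM (fragments per kilobase of transcript, normalised to sequencing depth), a scale on which the levels of different genes can be compared because length is divided out. Summed FPKM ranged from 424754 to 534311 per library and was higher in replicate 2 of both groups, and between 14589 and 14686 symbols had a value above 0. The number of reads is unknown, and with it the counting error of each value. The epithelial markers EPCAM (190.5 to 239.5 FPKM), KRT8, KRT18, KRT19 and CDH1 were present in all 4 libraries, and the leukocyte, fibroblast and erythroid markers PTPRC, COL1A2 and HBB were listed at 0 in all 4. As in any bulk sample, fewer cells expressing a gene and less RNA per cell cannot be told apart. Differences are given on the log2(FPKM + 1) scale, which understates changes of genes with low values, and were tested with limma's moderated test over the 11222 genes that reached 1 FPKM in 2 or more libraries. Of the 77 genes, 76 passed that filter. A gene was called where the unadjusted p of that test was under 0.05, the level the study used, and adjusted p-values (Benjamini-Hochberg over all genes tested) are printed beside the differences.

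Promoter sequence is a feature of these genes that the choice by symbol did not use. RefSeq promoters (GRCh38.p14, from 250 bases before to 50 bases after a transcription start) were found for 68 of the 77 genes, and 11 of these had more than 1 start, which gave 84 promoters. Each was searched on both strands for words bound by 3 regulators of nuclear genes for mitochondrial proteins. These were GCGCA and GCGC with any 1 base between them (NRF1), CCGGAAG (the ETS family, which includes GABP) and AANATGGCG (YY1). No word contains another. The windows below, each of 30 bases and written 5′ to 3′ on the strand of the gene, show a selection of the matches, from genes described below for their group difference, level or replicate difference, with the matching word in capitals. Further matches in these and other genes are not printed. A word in the reverse orientation appears as its reverse complement.
MRPL34, NRF1 word, chr19:17305627-17305656, plus strand: aatgccttgtGCGCACGCGCttgctcagaa
MRPL34, NRF1 word, chr19:17305727-17305756, plus strand: cgcctctgttGCGCAGGCGCagaactacaa
MRPL36, NRF1 word in reverse, chr5:1799928-1799957, minus strand: tcgcactccaGCGCCTGCGCactcgctgct
MRPL36, YY1 word in reverse, chr5:1799854-1799883, minus strand: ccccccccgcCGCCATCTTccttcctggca
MRPL51, ETS word, chr12:6493348-6493377, minus strand: cggcaggcggaCCGGAAGcactgaggcggg
MRPL53, ETS word, chr2:74472734-74472763, minus strand: gcagccggcggCCGGAAGtctatcccgcag
MRPS12, ETS word, chr19:38930928-38930957, plus strand: acggatagcgcCCGGAAGaggctagaagct
MRPS34, ETS word in reverse, chr16:1773187-1773216, minus strand: cctcttcctcgCTTCCGGccgcgaccgaac

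The ETS word was held by 38.1% of the 84 promoters, against 17.3% of the 12699 promoters of tested genes and 10.3% of all 35116 promoters. The YY1 word was held by 21.4%, against 6.34% and 3.19%, and the NRF1 word by 11.9%, against 10.2% and 5.78%. At least 1 of the words lay in 61.9% of the promoters of mitochondrial ribosomal protein genes and in 29.6% of those of tested genes. These are counts of letters, with no test, and several genes contribute more than 1 promoter. A word that is absent says nothing about the factor.

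**Figure D1:**
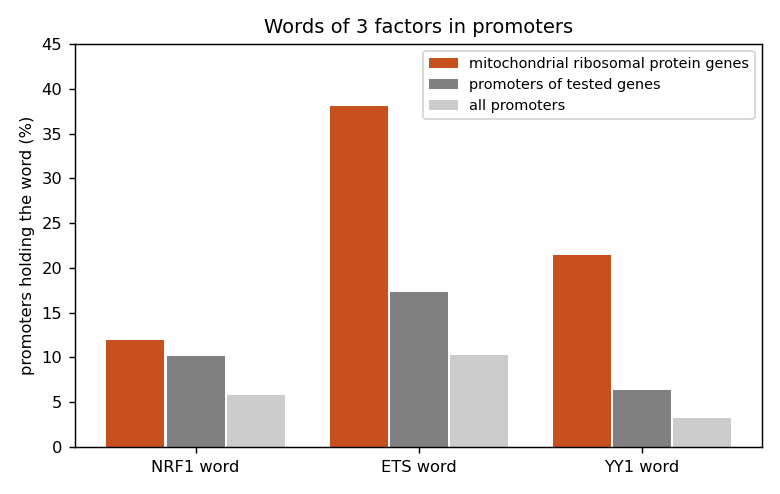
Percentage of promoters holding the NRF1, ETS or YY1 word on either strand, for mitochondrial ribosomal protein genes (orange, 84 promoters), tested genes (dark grey, 12699) and all promoters (light grey, 35116). The ETS word has the tallest bars, at 38.1%, 17.3% and 10.3%, and the NRF1 bars of the first 2 sets, at 11.9% and 10.2%, are close in height.

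In level, the 76 tested genes were among the better expressed genes of these cells. Their mean over the 4 libraries ranged from 7.09 to 204.5 FPKM with a median of 43.3 FPKM, against a median of 9.88 FPKM over all tested genes. MRPL12, the stalk protein onto which translation factors dock, was at 189.5 and 231.9 FPKM with si-NC replicates 1 and 2 and at 166.3 and 230.4 FPKM with si-152 replicates 1 and 2. It had the highest mean of the family, and its groups overlapped. MRPL51, a protein of the large subunit with no bacterial counterpart, followed at 142.4 and 207.3 FPKM with si-NC and 131.4 and 174.7 FPKM with si-152. MRPL41, MRPL20 and MRPL33 made up the top 5, with means of 144.8, 141.6 and 133.0 FPKM. All 5 encode proteins of the large subunit, and in each of them replicate 2 was above replicate 1 in both groups, while si-152 and si-NC overlapped. MRPL12 was the highest and MRPL51 the next in each of the 4 libraries, whereas the order of MRPL41, MRPL20 and MRPL33 varied from library to library.

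MRPS18B, on chr6:30617709-30626395 of GRCh38 (plus strand), was the gene that failed the filter, and it was listed at 0 in all 4 libraries. Such a 0 can be a failed estimate and is not evidence of absent RNA. Looking at its surroundings was decided after this value was seen. Of 14 other genes in the tables within 200 kb, 4 (PPP1R10, DHX16, NRM and FLOT1) were also listed at 0 in every library, and of all symbols 4247 (21.3%) were. Of the other 10, GNL1, TUBB and IER3 were above 1 FPKM in every library, with TUBB at 13.8 to 18.6 FPKM. The remaining 7 (HLA-E, PRR3, ABCF1, ATAT1, C6orf136, PPP1R18 and MDC1) reached at most 0.381 FPKM in any library. Whether reads of this stretch were lost in alignment or counting was not tested.

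Between si-152 and si-NC, 4 of the 76 genes had an unadjusted p under 0.05, and all 4 were lower in si-152 (MRPL34, MRPS7, MRPL36 and MRPL44). That is 5.26% of the family, beside 4.38% of all 11222 tested genes called in either direction and 2.5% called lower. None reached an adjusted p under 0.05 in this fit of the groups alone (Benjamini-Hochberg over all genes tested). Over all genes 0.0178%, 2 in number, reached it. With the replicate number added to the limma fit, MRPL34 (adjusted p = 0.0294) and MRPS7 (0.0329) did, beside 0.695% of all genes. With that fit and libraries scaled to equal summed FPKM, no gene of the family did. Of the 4 genes called by unadjusted p, MRPL34 and MRPS7 also passed a fold change of 1.5. That makes 2 of 76 (2.63%), beside 1.66% of all genes in either direction. With 0.1 in place of 1 added to FPKM, MRPL36 passed it too (log2 difference -0.59 in place of -0.58), which makes 3. The share called in either direction lay close to that over all genes. The share called lower, 5.26%, was above the 2.5% of all genes, but it rests on 4 genes and the difference was not tested.

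MRPL34, the counterpart of bacterial L34 in the large subunit (chr19:17292609-17306843, plus strand), was at 85.0 and 97.3 FPKM with si-NC replicates 1 and 2 and at 45.2 and 60.7 FPKM with si-152 replicates 1 and 2. Both si-152 libraries lay well below both si-NC libraries. The group means were 91.2 ± 8.69 and 53.0 ± 11.01 FPKM (SD, n = 2 each), a log2 difference of -0.78 with a standard error of 0.19 (limma, adjusted p = 0.621). The difference was -0.90 in replicate pair 1 and -0.67 in pair 2. It exceeded the gap between replicates, which was 0.19 in si-NC and 0.42 in si-152. Its promoters hold the pair of NRF1 words printed above.

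MRPS7, the counterpart of bacterial S7, which binds the ribosomal RNA in the head of the small subunit (chr17:75261674-75266373, plus strand), was at 39.0 and 48.1 FPKM with si-NC and at 24.4 and 28.9 FPKM with si-152. Again the groups did not overlap. The group means of 43.6 ± 6.50 and 26.6 ± 3.19 FPKM (SD, n = 2 each) gave a log2 difference of -0.69 with a standard error of 0.18 (limma, adjusted p = 0.724). The pairs were close to each other, at -0.66 and -0.72. Its RefSeq promoter holds none of the 3 words.

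MRPL36, the counterpart of bacterial L36 (chr5:1798386-1801366, minus strand), was at 47.2 and 68.7 FPKM with si-NC and at 31.6 and 45.3 FPKM with si-152. The si-152 library of replicate 2 came near the si-NC library of replicate 1, though the groups stayed apart. The log2 difference was -0.58 with a standard error of 0.23 (limma, adjusted p = 1.00), with -0.57 in pair 1 and -0.59 in pair 2. Replicate 2 exceeded replicate 1 by 0.53 in si-NC and by 0.51 in si-152, about as much as the groups differed. Without si-NC replicate 2 the log2 difference was -0.31, and without si-152 replicate 1 it was -0.32. Leaving out either library splits the replicate numbers unevenly between the groups, so these 2 values also carry the replicate gap. In a limma fit with group and replicate number, MRPL36 had an adjusted p of 0.0575.

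MRPL44, a protein near the exit of the nascent chain with a ribonuclease III-like fold (chr2:223957404-223967714, plus strand), was at 31.2 and 30.8 FPKM with si-NC and at 21.5 and 25.3 FPKM with si-152. Here the si-NC libraries were nearly equal and the si-152 libraries were both lower. The log2 difference was -0.39 with a standard error of 0.17 (limma, adjusted p = 1.00). The call was lost without si-NC replicate 1 (log2 difference -0.39), without si-NC replicate 2 (-0.40) and without si-152 replicate 1 (-0.28). MRPL48, a protein of the central protuberance, came next with 36.8 and 40.6 FPKM with si-NC and 27.1 and 32.7 FPKM with si-152, and its log2 difference of -0.37 was not called in the fit of the groups alone (limma, adjusted p = 1.00).

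At the other end, none of the 76 genes was called higher in si-152 in the fit of the groups alone. MRPS25, a small subunit protein found only in mitochondria, was at 6.48 and 7.10 FPKM with si-NC and at 9.37 and 8.33 FPKM with si-152, a log2 difference of 0.34 with a standard error of 0.18 (limma, adjusted p = 1.00). Its groups did not overlap, and its level is among the lowest of the family. MRPS6, MRPL55 and MRPS34, the next ones with a positive difference apart from MRPS12, had log2 differences of 0.17, 0.13 and 0.10, with standard errors of 0.25, 0.24 and 0.29. In all 3 the replicates of a group lay further apart than the group means.

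MRPS12, the counterpart of bacterial S12 at the decoding centre, was the least stable gene of the family. It was at 1.73 and 7.47 FPKM with si-NC replicates 1 and 2 and at 0.887 and 19.3 FPKM with si-152 replicates 1 and 2. It was lower in si-152 in pair 1, by a log2 difference of -0.53, and higher in pair 2, by 1.26. The resulting group difference of 0.36 had a standard error of 0.89 (limma, adjusted p = 1.00). Its replicates differed by 1.63 in si-NC and by 3.43 in si-152, in both groups with replicate 2 higher. SARS2, the mitochondrial seryl-tRNA synthetase gene whose exons overlap those of MRPS12 on the opposite strand, was at 1.69 and 4.74 FPKM with si-NC and at 1.60 and 4.83 FPKM with si-152. It too was higher in replicate 2 in both groups, and how reads were shared between these genes was not tested.

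**Figure D2:**
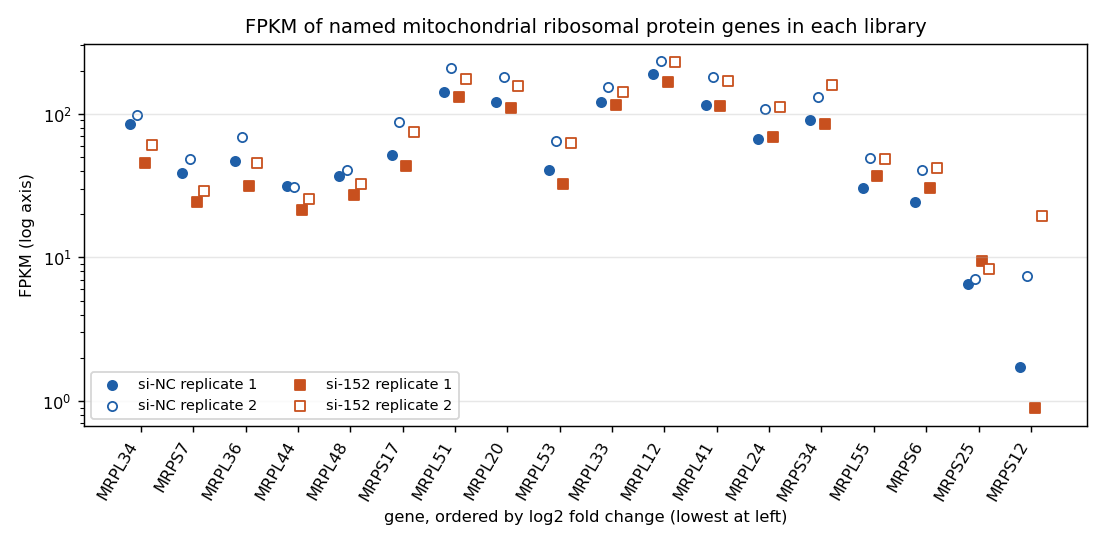
FPKM (log axis) of the mitochondrial ribosomal protein genes named by rule, in si-NC (blue circles) and si-152 (orange squares), with replicate 1 filled and replicate 2 open, ordered by log2 fold change. In MRPL34, MRPS7, MRPL36, MRPL44 and MRPL48 both squares lie below both circles, and in MRPS12 the open symbols (7.47 and 19.3 FPKM) stand far above the filled ones (1.73 and 0.887 FPKM).

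Across the family most differences were small and negative. Of the 76 genes, 57 had a lower and 19 a higher mean in si-152, with a median log2 difference of -0.11, against 0.02 over all tested genes. Over all 11222 tested genes, 5137 had a lower and 6085 a higher mean. The interquartile range of the family ran from -0.20 to 0.00. In pair 1 the median of the family was -0.14 and that of all genes -0.03. In pair 2 it was -0.03 against 0.07. The median thus lay about as far below that of all genes in either pair. Scaling the libraries to equal summed FPKM raised the median of all genes to 0.11 and that of the family to -0.01 (35 genes higher and 41 lower), and turned the family's median in pair 2 to 0.04. The distance between the family and all genes was -0.13 without scaling and -0.12 with it. The family's median also changed sign when si-NC replicate 2 (0.01) or si-152 replicate 1 (0.05) was left out, and was -0.24 without si-NC replicate 1 and -0.29 without si-152 replicate 2. Leaving out a library splits the replicate numbers unevenly between the groups.

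In both pairs together, 38 genes (50% of the family) were lower in si-152, where 27.3% of all tested genes were, and 11 genes (14.5%) were higher in both, where 35.6% of all genes were. Genes without overlap between the groups were scarcer. In 12 genes (15.8%) both si-152 libraries lay below both si-NC libraries, beside 13.9% of all genes, and in 3 (MRPL10, MRPL49 and MRPS25; 3.95%) they lay above, beside 16.5%. The share of the family without overlap downward was therefore near that of all genes, while the share upward was below it. For MRPL10 and MRPL49 the separation was small, with log2 differences of 0.09 and 0.05.

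**Figure D3:**
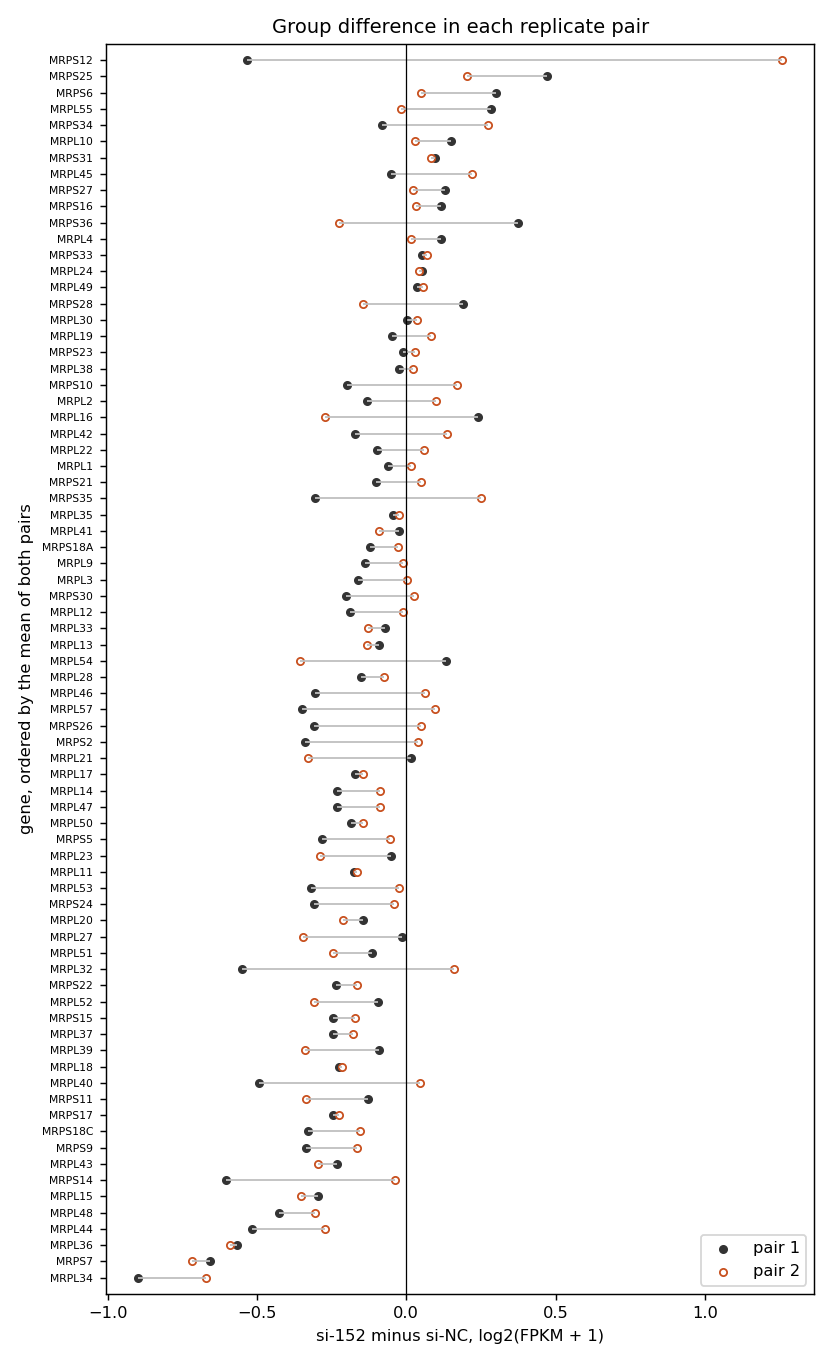
Log2(FPKM + 1) difference between si-152 and si-NC for each of the 76 tested mitochondrial ribosomal protein genes, in replicate pair 1 (black, filled) and pair 2 (orange, open), joined by a line and ordered by their mean. For 38 genes both points lie left of 0 and for 11 both lie right of it, and MRPS12 at the top has the longest line, from -0.53 to 1.26.

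By subunit, 42 of 50 large subunit genes were lower in si-152, with a median log2 difference of -0.12, and 15 of 25 small subunit genes were, with a median of -0.03. The large subunit set includes MRPS18A and MRPS30, which sit there despite their names. MRPS36, a component of the alpha-ketoglutarate dehydrogenase complex, was placed in neither (8.54 and 12.1 FPKM with si-NC, 11.4 and 10.2 FPKM with si-152). The large subunit held 3 of the 4 calls and the small subunit held MRPS7. The difference between the subunits was not tested.

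Over both subunits together, the 45 genes with a bacterial counterpart had a median of -0.15 and the 28 mitochondria-specific genes one of -0.12. In the large subunit this order turned, with -0.11 over 29 genes with a bacterial counterpart and -0.16 over 19 mitochondria-specific genes. The 16 small subunit genes with a bacterial counterpart had a median of -0.17. Genes around the exit tunnel (8 genes, among them MRPL44 and MRPL45) had a median of -0.16. Those of the central protuberance (9 genes, among them MRPL48) had one of -0.18, and those of the stalk (5 genes, among them MRPL12 and MRPL53) one of -0.11. The 9 mitochondria-specific small subunit genes had a median of 0.06, with 6 of them higher. They include MRPS25 and MRPS34, and their replicate differences had a median of 0.15.

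Summed over all 77 genes, the family took 3654 and 4536 FPKM with si-NC replicates 1 and 2 and 3282 and 4239 FPKM with si-152 replicates 1 and 2. As a share of all FPKM this was 0.789% and 0.849% in si-NC and 0.773% and 0.836% in si-152. Each si-152 library was below the si-NC library of the same number, while replicate 2 of either group was above replicate 1 of both.

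Replicates differed more than the groups did. In si-NC, replicate 2 exceeded replicate 1 by a median log2 difference of 0.21 over the 76 genes, against -0.11 over all tested genes. In si-152 the medians were 0.27 and -0.01. The mean of both replicate differences was above 0 in 67 genes and below 0 in 9, and 59 genes (77.6%) were higher in replicate 2 in both groups, beside 29.4% of all genes. Scaling to equal summed FPKM lowered the family's medians to 0.01 and 0.02, with 39 and 43 genes above 0 in place of 62 and 70, and those of all genes to -0.29 and -0.23. The distance between the family and all genes was 0.32 and 0.28 without scaling and 0.30 and 0.26 with it.

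The replicate coefficient of a limma fit with group and replicate number had an unadjusted p under 0.05 in 39 of the 76 genes, beside 33.4% of all tested genes. Of these, 38 (50% of the family) were higher in replicate 2, beside 13.5% of all genes, and MRPL45 was the 1 gene that was lower. With equal summed FPKM there were 17 genes, beside 50.3% of all genes, and 11 of the 17 were higher in replicate 2, beside 3.05%. Without scaling, 15 genes had an adjusted p under 0.05, all of them higher in replicate 2, beside 8.32% of all genes in either direction. In size, again without scaling, the mean replicate difference exceeded the group difference in 59 of the 76 genes (77.6%), beside 63.1% of all genes. For MRPL34, MRPS7, MRPL36 and MRPL44, the genes called between the groups, the group difference was the larger one. That follows largely from how they were picked, since the fit of the groups alone measures the group difference against the replicate gaps.

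The genes with the largest replicate differences after MRPS12 (mean of both groups 2.53) were MRPL53, MRPS17, MRPS34 and MRPL24. MRPL53, a stalk protein, was at 40.8 and 64.2 FPKM with si-NC replicates 1 and 2 and at 32.5 and 63.1 FPKM with si-152, a mean replicate difference of 0.79 (limma, adjusted p = 0.0229). MRPS17, the counterpart of bacterial S17, went from 51.6 to 87.4 FPKM between the replicates of si-NC and from 43.3 to 74.6 FPKM between those of si-152. In both genes the replicate 1 libraries of the groups lay closer to each other than to their own replicate 2.

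MRPS34, which was at 90.5 and 131.4 FPKM with si-NC and at 85.5 and 158.9 FPKM with si-152, had replicate differences of 0.53 and 0.89. MRPL24, the counterpart of bacterial L24 at the exit tunnel, was at 66.6 and 107.7 FPKM with si-NC and at 69.1 and 111.0 FPKM with si-152. Its replicate differences were 0.69 and 0.68, and its group difference was 0.05. MRPL45, which ties the ribosome to the inner membrane, went the other way, with 10.8 and 7.68 FPKM with si-NC and 10.4 and 9.11 FPKM with si-152 (mean replicate difference -0.31, adjusted p = 0.115 by limma).

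**Figure D4:**
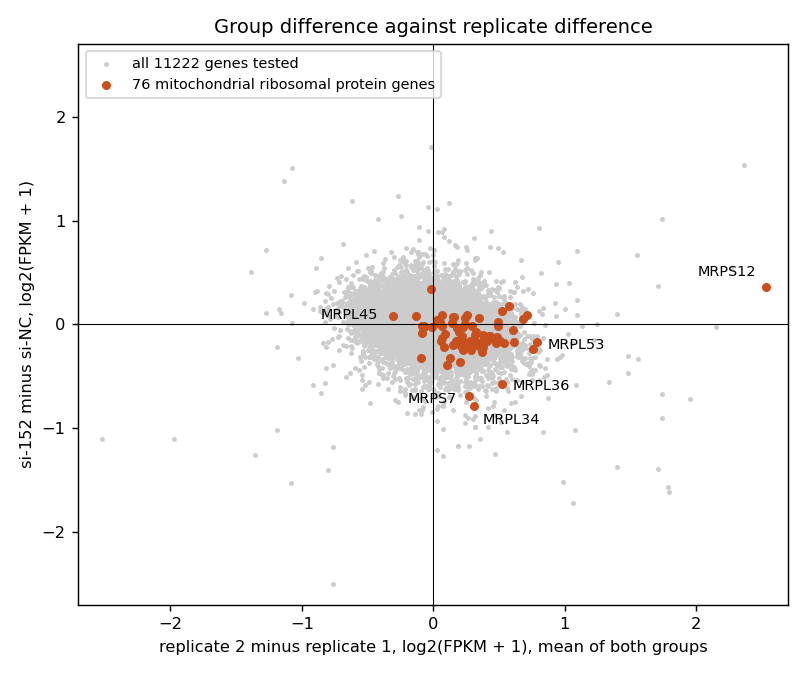
Difference between si-152 and si-NC (vertical axis) against the mean difference between replicates 2 and 1 (horizontal axis), both on the log2(FPKM + 1) scale, for 76 mitochondrial ribosomal protein genes (orange) and all 11222 tested genes (grey, of which 10 lie outside the axes). The orange points lie mostly right of 0 and slightly below it (medians 0.27 and -0.11), with MRPL34 and MRPS7 lowest and MRPS12 far to the right at 2.53.

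The transcripts of these genes are short. With lengths from GENCODE v29 (the median over a gene's transcripts), the 76 genes had a median of 1137 bases, ranging from 461 to 3332, against 2515 bases over the 10776 tested genes that could be matched. Replicate differences went with length over all genes. In genes under 1000 bases the median replicate difference was 0.23 in si-NC and 0.34 in si-152, and in genes of 4000 bases or more it was -0.32 and -0.24. The 27 mitochondrial ribosomal protein genes under 1000 bases had medians of 0.40 and 0.37, and the 42 from 1000 to under 2000 bases had 0.19 and 0.25, where all genes of that class had 0.06 and 0.17. The remaining 7 genes, from 2000 to under 4000 bases, had -0.01 and 0.16, against -0.14 and -0.04. In each of these classes, and in both groups, the family lay above all genes of its length.

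For the difference between si-152 and si-NC, the median in genes under 1000 bases was -0.12 over all genes and -0.16 over the family, and from 1000 to under 2000 bases -0.04 and -0.09. From 2000 to under 4000 bases it was 0.04 over all genes and -0.13 over the 7 genes of the family, and above that it was 0.09 over all genes. Over the 76 genes, Spearman's rho between length and the mean replicate difference was -0.49, and between GC content and that difference it was 0.61. The same values for the group difference were 0.07 and -0.01. Over all 10776 matched genes, rho with length was -0.63 for the replicate difference and 0.29 for the group difference, and rho with GC content was 0.45 and 0.03. These correlations run across genes that share 4 libraries, and are descriptions without a test. What part length, GC content or library preparation had in either difference was not tested.

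**Figure D5:**
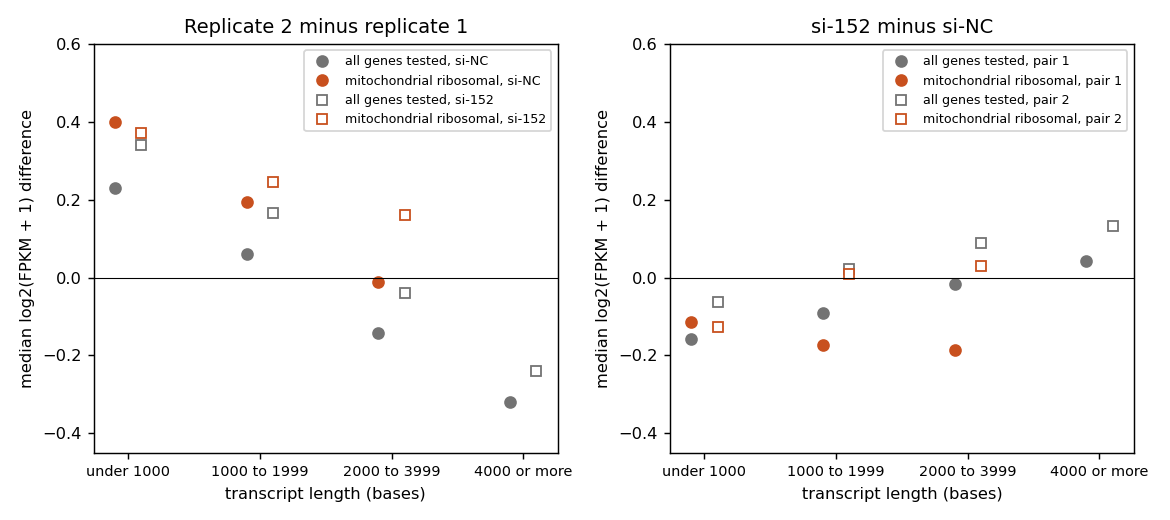
Median log2(FPKM + 1) difference by transcript length class for all tested genes (grey) and mitochondrial ribosomal protein genes (orange). On the left, replicate 2 minus replicate 1 in si-NC (filled) and si-152 (open) drops with length, from 0.23 and 0.34 to -0.32 and -0.24 over all genes, and on the right the differences between si-152 and si-NC in pair 1 (filled) and pair 2 (open) rise with it over all genes, with no family member of 4000 bases or more.

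The rest of the mitochondrial translation apparatus was examined through lists of genes. Of 6 ribosomal proteins that carry other names, none passed the test, 3 were higher and 3 lower in si-152, and their median log2 difference was -0.07. DAP3, a GTP-binding protein in the head of the small subunit, was at 91.9 and 88.5 FPKM with si-NC and at 82.3 and 103.1 FPKM with si-152. AURKAIP1, another small subunit protein, was at 107.8 and 158.6 FPKM and at 85.5 and 128.1 FPKM. With the replicate number in the limma fit, AURKAIP1 had an unadjusted p of 0.018 (adjusted p = 0.203). The list resembled the family in that its replicate differences had a positive median, of 0.19.

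Of 39 genes for assembly of the ribosome and for mitochondrial translation, 1 was called lower, beside 2.5% of all tested genes, and none higher. In si-152, 20 had a higher and 19 a lower mean, and the median log2 difference was 0.00. The called gene was RPUSD4, a pseudouridine synthase that modifies mitochondrial ribosomal RNA. It was at 8.03 and 8.81 FPKM with si-NC and at 5.82 and 5.84 FPKM with si-152, a log2 difference of -0.46 with a standard error of 0.18 (limma, adjusted p = 1.00). Its si-152 libraries were almost equal and both below si-NC. Of 14 regulators of mitochondrial gene expression, 13 were tested and none passed in the fit of the groups alone. In si-152, 9 were higher and 4 lower, with a median of 0.14. With the replicate number in the fit, TFB2M, POLRMT, PPRC1 and MYC, all higher, had an unadjusted p under 0.05 (limma), beside 16.9% of all genes. Among factors of the promoter words, NRF1 had a log2 difference of 0.14 and YY1 one of 0.23. Each was higher in both pairs, as were 35.6% of all tested genes. GABPB1 had one of -0.18, and GABPA, the DNA-binding subunit of GABP, one of -0.03. GABPA was at 9.76 and 7.38 FPKM with si-NC and at 8.68 and 7.97 FPKM with si-152. POLRMT, the mitochondrial RNA polymerase, was at 23.3 and 25.2 FPKM and at 25.5 and 36.6 FPKM. PPARGC1A was listed at 0 in all 4 libraries. Genes encoded by mitochondrial DNA were not analysed here.

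The cytosolic ribosomal proteins, which are also short and highly expressed, had medians of the same signs without scaling. Of 79 tested genes, 76 were lower in si-152, with a median log2 difference of -0.19, and 1 was called (RPL22, lower, at 241.1 and 295.4 FPKM with si-NC and 173.4 and 202.7 FPKM with si-152, adjusted p = 1.00 by limma). Over all 11222 tested genes, 5137 were lower and 4.38% were called in either direction. For the cytosolic genes without scaling, the values were as follows. Their median replicate difference was 0.42, against 0.27 in the mitochondrial family. They took 27.2% and 32.9% of all FPKM with si-NC replicates 1 and 2 and 26.5% and 29.6% in si-152. The cytosolic medians, of groups and of replicates, were the larger in size without scaling, with median-of-ratios scaling and with equal summed FPKM. With median-of-ratios scaling the median group difference was -0.21 in the cytosolic and -0.13 in the mitochondrial family. With equal summed FPKM it was -0.09 and -0.01. Of the scalings run, only quantile normalization turned this order. Under quantile normalization the median group difference was -0.03 in the cytosolic and -0.08 in the mitochondrial family, and the median replicate differences were 0.07 (si-NC) and 0.0090 (si-152) in the cytosolic and 0.19 and 0.16 in the mitochondrial family. The difference between both families was not tested.

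Set beside the promoter words, the group difference had similar medians with and without each word. The 29 tested genes with an ETS word had a median log2 difference between si-152 and si-NC of -0.11 with no call, and the 38 without it one of -0.14 with 4 calls. With a YY1 word the median was -0.12 over 17 genes and without it -0.12 over 50. With an NRF1 word it was -0.16 over 9 genes, MRPL34 and MRPL36 among them, and without it -0.11 over 58. Levels were somewhat higher with an ETS word, with a median of 56.0 FPKM against 37.0 FPKM without. None of these splits was tested.

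Several of these values carry an uncertainty of assignment. In GENCODE v29, 34 of the 77 genes have exons that overlap another gene, 24 of them on the opposite strand, and 34 have at least 1 pseudogene named after them. Whether the counting used strand is not given in the sources used here, so reads of overlapping partners may be shared. For MRPL34 the partner is ABHD8, at 4.89 and 7.11 FPKM with si-NC and 4.69 and 5.56 FPKM with si-152. For MRPS7 the partners are GGA3, at 11.5 and 7.82 FPKM with si-NC and 13.9 and 10.4 FPKM with si-152, and MIF4GD, at 22.9 and 27.6 FPKM and at 21.6 and 27.3 FPKM. None of these partners passed the test between the groups, which with 2 libraries per group does not show that they were unchanged. ABHD8 was far below MRPL34 in every library. MIF4GD came near MRPS7 in si-152, where MRPS7 was at 24.4 and 28.9 FPKM. MRPL44 overlaps AC073641.1 on the opposite strand, for which no values are given here. How reads were shared between these genes was not tested.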

How the data were processed

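HCT116 cells had been transfected with si-NC or si-152, and RNA was taken in 2 libraries per group. Each library has its own table of symbols and values, which the authors deposited without naming the unit and which were read as FPKM from the values. The submitters' processing notes name Trimmomatic, TopHat, HISAT2, HTSeq and DESeq and the build GRCh38, without roles or versions. Groups and replicate numbers came from the labels. The tables hold 28 date-like symbols, which were not matched to genes. The genes examined, the lists and the tests were chosen with earlier results of these data known.

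No scaling was applied. Genes that reached 1 FPKM in 2 or more libraries were tested on log2(FPKM + 1) with limma 3.58.1 in R 4.3.3 (mean-variance trend, Benjamini-Hochberg adjustment over all genes tested). The code was checked on simulated data. Those data held no effect shared by replicate number, so the check does not cover that feature of these libraries. Since the values were read as FPKM, limma stood in for a test on counts. Depth is unknown. Medians and promoter words were computed with Python 3.11.15, numpy 2.4.6 and pandas 2.3.3. Genes were named by rule: members or listed genes with an unadjusted p under 0.05, the 5 largest differences in each direction, the 5 highest means, the 5 largest replicate differences, and members under the filter. Other genes named as examples were picked for their role or for overlapping a named gene. Alternatives covered pseudocount, filter, scaling, variance trend, replicate block and single libraries.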

Additional observations from a re-analysis of the deposited data

How the results depend on the processing

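The 2 libraries per group and the unknown depth limit these results, and single calls rest on unadjusted p-values. MRPL34 and MRPS7 kept a p under 0.05 and the lower direction under all 16 alternatives. MRPL36 lost its call with no filter, with median-of-ratios scaling and without si-NC replicate 2 or si-152 replicate 1, and MRPL44 with equal summed FPKM, without the variance trend and without any library other than si-152 replicate 2. The labels do not tie the replicate numbers to a shared batch. Deviations of same-numbered libraries correlated at 0.52 over genes. With the number as a replicate block, 8 of the 76 genes had a p under 0.05, beside 16.9% of all genes, and 2 an adjusted p under 0.05 (MRPL34, 0.0294, and MRPS7, 0.0329), beside 0.695%. The block added calls for MRPL15, MRPL43 and MRPL48 (lower) and MRPS25 (higher). The share called grew more over all genes than in the family.

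Combinations added after seeing the data gave, with the block, 16 and 1 genes under median-of-ratios scaling, 11 and 3 under quantile normalization, 8 and 0 under equal summed FPKM and 8 and 2 with a pseudocount of 0.1, beside 19.2%, 18.9%, 23.8% and 16.7% of all genes with a p under 0.05 and 0.232%, 1.6%, 0.0178% and 0.606% with an adjusted p under 0.05. Equal summed FPKM moved the median group difference to -0.014, with or without the block, the median replicate difference to 0.047 and the replicate calls to 17, and the median replicate difference was 0.34 with median-of-ratios scaling and 0.18 with quantile normalization. The cause was not tested. Leaving out 1 library at a time gave 4 to 10 genes with a p under 0.05, beside 2.76% to 6.45% of all genes, 0 to 2 with an adjusted p under 0.05, beside 0.401% to 0.695% (MRPS12 in all but the fit without si-NC replicate 1, and MRPL34 without si-152 replicate 2) and 1 to 6 past the fold change as well. The extremes of 10 and 6 came without si-152 replicate 2, and 1 came without si-152 replicate 1. The median group difference ran from -0.29 without si-152 replicate 2 to 0.045 without si-152 replicate 1 (0.010 without si-NC replicate 2), and the median replicate difference from 0.21 to 0.27. Differences of single genes turned from positive to negative without si-NC replicate 1 and without si-152 replicate 2, for MRPS34 (-0.17 and -0.35), MRPL55 (-0.20 and -0.053), MRPS6 (-0.18 and -0.051) and MRPS12 (-0.45 and -1.35), and reached 0.54, 0.47, 0.52 and 2.08 at the highest. With 3 libraries a model of group and replicate number has no residual degrees of freedom, so the replicate calls could not be recomputed. Where 1 library was left in a group, it was assumed to vary like the others. The sum over the family differed by -334.7 FPKM between the group means, by -411.8 with median-of-ratios scaling and by -71.3 with equal summed FPKM. Quantile normalization was not run for that sum.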
